A study of Mus musculus with 6 samples.

Results

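The adaptors of the Toll-like receptors and the IRAK kinases that act below them were followed by the read counts of 10 genes, chosen by symbol from the 49492 rows of the deposited table: Myd88, Tirap, Ticam1, Ticam2, Irak1, Irak2, Irak3, Irak4, Traf6 and Map3k7. All 10 were present and all 10 were high enough to test. The samples were RAW264.7 cells, a mouse macrophage line, in 2 groups of 3 libraries. Cells of the first group were transfected for 48 h with 50 nM of an siRNA against Ep300, the gene of the lysine acetyltransferase and coactivator p300. Cells of the second group received the same dose of a control siRNA for the same time, and the labels give their genotype as WT. Both groups therefore went through transfection, no receptor ligand is named in the labels, and the design is a partial, transient silencing in 1 cell line. The sources used here do not give the siRNA sequences or how many were pooled.

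Toll-like receptors signal through short cytoplasmic TIR domains, to which adaptor proteins bind. Tirap and Ticam2 are bridging adaptors at the membrane: Tirap brings in Myd88, and Ticam2 brings Ticam1 to Tlr4. Myd88 assembles Irak4 with Irak1 or Irak2, which pass the signal to the ubiquitin ligase Traf6 and the kinase Map3k7 (TAK1), and so to NF-kB and MAP kinases, while Ticam1 leads to type I interferon genes.

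Total counts ran from 29993567 to 45377510 per library. Ep300 siRNA replicate 1 stood apart in the share of its counts in Gm42418, whose annotation covers ribosomal RNA sequence (0.569%, against 0.132% to 0.215% in the other 5 libraries), so values without it are given for those of the 10 genes that passed the test. Ep300 itself held 51.1, 59.0 and 55.0 CPM (counts scaled by TMM-adjusted library size) in Ep300 siRNA replicates 1, 2 and 3, against 106.8, 115.3 and 118.4 CPM in control siRNA replicates 1, 2 and 3. All 10 macrophage markers examined had reads in every library, at a summed level of 11050 to 11999 CPM after Ep300 siRNA and 9780.5 to 11434 CPM after control siRNA. Lyz2, the highest of the 10, made up most of the sum (6655 to 8719 CPM over both groups). Mertk, the lowest, had 4 to 14 reads per library (0.0864 to 0.404 CPM) and was too low to test. Of the 9 markers tested, none had an edgeR adjusted p under 0.05. Before adjustment, 4 of the 9 were under 0.05 (1 higher, 3 lower after Ep300 siRNA), against 22.2% of all genes tested (10.3% higher, 11.9% lower). Of 20 markers of other cell types, 4 (Ncr1, Ly6g, Epcam and Mcpt4) had no read in any library, and the 20 summed to 1.26 to 1.76 CPM after Ep300 siRNA and 1.81 to 2.09 CPM after control siRNA. Separate cultures are not named in the labels, so the spread behind each p-value is that between these samples and may be technical. In such bulk RNA, fewer cells with a transcript and less of it per cell cannot be told apart.

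The set split. Ticam2 and Irak2 fell after Ep300 siRNA, Tirap rose, and 7 genes did not pass the test, which was edgeR's quasi-likelihood F-test with Benjamini-Hochberg adjustment over 15741 genes and a threshold of 0.05. Of all genes tested, 6.78% changed, 2.76% higher and 4.02% lower, so 3 of 10 is above the share of all genes. No test was made of the set as a whole. The 10 genes were chosen with earlier results of these data known, so their shares are not independent of that choice. The median log2 fold change of the 10 genes was 0.066, with 6 positive and 4 negative, against a median of -0.0038 over all genes tested. Without adjustment, 5 of the 10 genes had an edgeR p under 0.05 (3 higher, 2 lower), against 22.2% of all genes tested (10.3% higher, 11.9% lower). By range, Ep300 siRNA and control siRNA libraries did not overlap for 6 of the 10 genes (3 higher, 3 lower), a separation seen in 27.5% of all genes tested (13% higher, 14.4% lower). The summed CPM of the 10 genes overlapped between groups, at 365.6 to 373.3 CPM after Ep300 siRNA and 356.5 to 369.3 CPM after control siRNA.

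**Figure D1:**
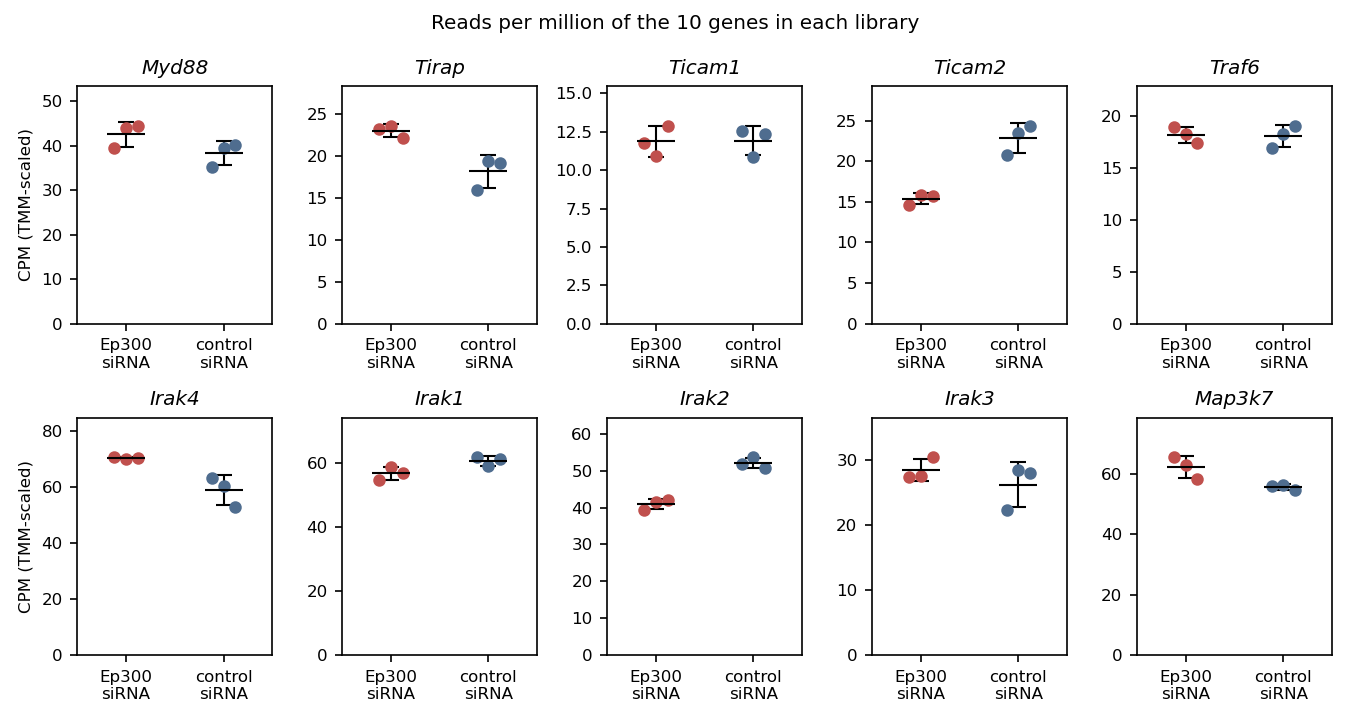
CPM of each of the 10 genes (y axes from 0) in the 3 Ep300 siRNA libraries (left, red) and the 3 control siRNA libraries (right, blue), with replicates 1 to 3 from left to right, and the mean and SD in black. The groups lie clearly apart for Ticam2 and Irak2, whose Ep300 siRNA libraries are the lower ones, and for Tirap and Irak4, whose Ep300 siRNA libraries are the higher ones; for Irak1 and Map3k7 the gap is narrow.

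Among the bridging adaptors, Ticam2, known also as TRAM, had the largest change of the 10 genes. It held 14.6, 15.9 and 15.7 CPM in Ep300 siRNA replicates 1, 2 and 3, against 20.8, 23.5 and 24.4 CPM in control siRNA replicates 1, 2 and 3 (means of 15.4 ± 0.675 and 22.9 ± 1.89 CPM, SD, n = 3 each). Every Ep300 siRNA library lay below every control siRNA library. The transcript fell to 0.674 of its control level, a log2 fold change of -0.57 ± 0.08 (SE, 95% interval -0.75 to -0.38, edgeR adjusted p = 0.00281), and to -0.53 (edgeR adjusted p = 0.0107) without Ep300 siRNA replicate 1. It stayed past the threshold in all 16 other settings run (log2 fold change -0.63 to -0.52).

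Ticam2 lies on the minus strand of chromosome 18 (GRCm38, 46557291 to 46574533). Its exons share 838 of 5792 bases (14.5%) with Tmed7, on the same strand, which encodes a p24-family protein of the secretory pathway. Tmed7 fell as well, less steeply: it held 42.8, 40.8 and 43.1 CPM in Ep300 siRNA replicates 1, 2 and 3, against 48.1, 49.2 and 50.5 CPM in control siRNA replicates 1, 2 and 3 (log2 fold change -0.22 ± 0.06, SE, edgeR adjusted p = 0.046). Tmed7 lost its call with any 1 of the 6 libraries left out (edgeR adjusted p of 0.0518 to 0.157), with RLE scaling (0.0522) and with no filter on low counts (0.0592). The sources used here do not say how reads in the shared stretch were assigned. The ratio of Ticam2 to Tmed7 reads was 0.342, 0.39 and 0.364 in Ep300 siRNA replicates 1, 2 and 3, against 0.432, 0.478 and 0.484 in control siRNA replicates 1, 2 and 3. Ticam2 was therefore lower in relation to its neighbour too, in every Ep300 siRNA library.

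Tirap, known also as Mal, is the bridging adaptor of the Myd88 branch, used by Tlr2 and Tlr4 (chromosome 9, 35184551 to 35200291, minus strand). It held 23.2, 23.6 and 22.2 CPM in Ep300 siRNA replicates 1, 2 and 3, against 15.9, 19.4 and 19.2 CPM in control siRNA replicates 1, 2 and 3 (means of 23.0 ± 0.738 and 18.2 ± 1.94 CPM, SD, n = 3 each). The groups did not overlap, and control siRNA replicate 1 was the lowest of the 6. Tirap rose 1.27-fold, a log2 fold change of 0.34 ± 0.09 (SE, 95% interval 0.15 to 0.54, edgeR adjusted p = 0.0378). This call was close to the threshold: it was lost whichever of the 6 libraries was left out (edgeR adjusted p from 0.0581 without control siRNA replicate 3 to 0.122 without Ep300 siRNA replicate 2; 0.0827 without Ep300 siRNA replicate 1), and on unscaled library sizes (0.0525). The log2 fold change itself stayed between 0.26 and 0.40, the lowest value coming without control siRNA replicate 1. Tirap shares 39 exonic bases with Srpr and 446 with Gm39318, both on the other strand, and the sources used here do not say whether counting used strand. Srpr had a log2 fold change of 0.18 ± 0.07 (SE, edgeR adjusted p = 0.142), and Gm39318 had no row of counts.

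The signalling adaptors that these bridges serve did not pass the test. Myd88 held 39.4, 43.9 and 44.6 CPM in Ep300 siRNA replicates 1, 2 and 3, against 35.3, 39.5 and 40.3 CPM in control siRNA replicates 1, 2 and 3, with overlapping groups (log2 fold change 0.16 ± 0.07, SE, 95% interval -0.0072 to 0.32, edgeR adjusted p = 0.25). Acaa1a, on the other strand, shares 290 of the 2576 exonic bases of Myd88 and had a log2 fold change of -0.064 ± 0.06 (SE, edgeR adjusted p = 0.595). Ticam1, known also as TRIF, held 11.8, 10.9 and 12.9 CPM in Ep300 siRNA replicates 1, 2 and 3, against 12.6, 10.8 and 12.4 CPM in control siRNA replicates 1, 2 and 3 (log2 fold change -0.0075 ± 0.10, SE, 95% interval -0.23 to 0.21, edgeR adjusted p = 0.976). The Ticam1 libraries of the groups interleaved, and the interval allows a level of 0.855 to 1.16 of control.

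Bridge and partner can be set side by side within a library, per kb of exon. The ratio of Ticam2 to Ticam1 was 0.641, 0.753 and 0.628 in Ep300 siRNA replicates 1, 2 and 3, against 0.854, 1.12 and 1.02 in control siRNA replicates 1, 2 and 3. The ratio of Tirap to Myd88 was 0.308, 0.281 and 0.26 in Ep300 siRNA replicates 1, 2 and 3, against 0.236, 0.256 and 0.249 in control siRNA replicates 1, 2 and 3. The first ratio was lower in every Ep300 siRNA library than in any control siRNA library, and the second was higher, by a narrow margin.

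Of the IRAK kinases, only Irak2 passed the test. Irak2 carries a kinase-like domain and sustains signalling to Traf6 (chromosome 6, 113638467 to 113695026, plus strand). It held 39.4, 41.5 and 42.0 CPM in Ep300 siRNA replicates 1, 2 and 3, against 51.8, 53.7 and 50.8 CPM in control siRNA replicates 1, 2 and 3 (means of 41.0 ± 1.38 and 52.1 ± 1.46 CPM, SD, n = 3 each). The libraries of each group lay close together and the groups far apart. Irak2 fell to 0.787 of its control level, a log2 fold change of -0.35 ± 0.06 (SE, 95% interval -0.48 to -0.22, edgeR adjusted p = 0.00597), and to -0.31 (edgeR adjusted p = 0.0264) without Ep300 siRNA replicate 1. It stayed past the threshold in all 16 other settings run, with the highest edgeR adjusted p, 0.0434, without control siRNA replicate 2. On the other strand, 196 of its 4412 exonic bases overlap Gm43963, a row at 3.79 to 4.54 CPM after Ep300 siRNA and 5.08 to 5.58 CPM after control siRNA. Gm43963 had a log2 fold change of -0.35 ± 0.13 (SE, edgeR adjusted p = 0.128).

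Irak4, the kinase that starts the cascade on Myd88 (chromosome 15, 94543643 to 94581815, plus strand), lay just outside the threshold. It held 70.7, 70.1 and 70.2 CPM in Ep300 siRNA replicates 1, 2 and 3, against 63.2, 60.5 and 52.8 CPM in control siRNA replicates 1, 2 and 3. The groups did not overlap, the Ep300 siRNA libraries were nearly equal, and control siRNA replicate 3 was the lowest. Its log2 fold change of 0.26 ± 0.07 (SE, 95% interval 0.10 to 0.41) had an edgeR adjusted p of 0.0524, and 7 of the 16 other settings placed it past the threshold, among them DESeq2 (adjusted p = 0.02), RLE scaling in edgeR (0.0478) and the fit without control siRNA replicate 1 (0.0246). The log2 fold change was lowest, at 0.19, without control siRNA replicate 3. Twf1, on the other strand, shares 395 of the 5021 exonic bases of Irak4 and had a log2 fold change of 0.13 ± 0.07 (SE, edgeR adjusted p = 0.303).

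The other IRAK genes did not pass. Irak1, the kinase that Irak4 phosphorylates, held 54.7, 58.7 and 56.9 CPM in Ep300 siRNA replicates 1, 2 and 3, against 61.9, 58.9 and 61.2 CPM in control siRNA replicates 1, 2 and 3 (log2 fold change -0.096 ± 0.06, SE, edgeR adjusted p = 0.373). Its groups did not overlap, but only just. Irak3, known also as IRAK-M, is an inhibitor of the cascade found in monocytes and macrophages. It held 27.4, 27.5 and 30.4 CPM in Ep300 siRNA replicates 1, 2 and 3, against 22.2, 28.4 and 27.9 CPM in control siRNA replicates 1, 2 and 3 (log2 fold change 0.12 ± 0.10, SE, edgeR adjusted p = 0.508). The groups overlapped, and the log2 fold change was 0.019 without control siRNA replicate 1, the library with the lowest value. Tmbim4, on the other strand, shares 192 exonic bases with Irak3 and had a log2 fold change of 0.12 ± 0.15 (SE, edgeR adjusted p = 0.692).

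Below the kinases, Traf6 held 18.9, 18.3 and 17.4 CPM in Ep300 siRNA replicates 1, 2 and 3, against 17.0, 18.2 and 19.1 CPM in control siRNA replicates 1, 2 and 3 (log2 fold change 0.0095 ± 0.08, SE, 95% interval -0.16 to 0.18, edgeR adjusted p = 0.961). The sign of this value turned in 3 settings. Map3k7, the TAK1 kinase that Traf6 activates, held 65.5, 62.8 and 58.4 CPM in Ep300 siRNA replicates 1, 2 and 3, against 55.9, 56.3 and 54.5 CPM in control siRNA replicates 1, 2 and 3. Its groups did not overlap, but it did not pass (log2 fold change 0.16 ± 0.06, SE, 95% interval 0.027 to 0.30, edgeR adjusted p = 0.144), nor in any other setting.

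**Figure D2:**
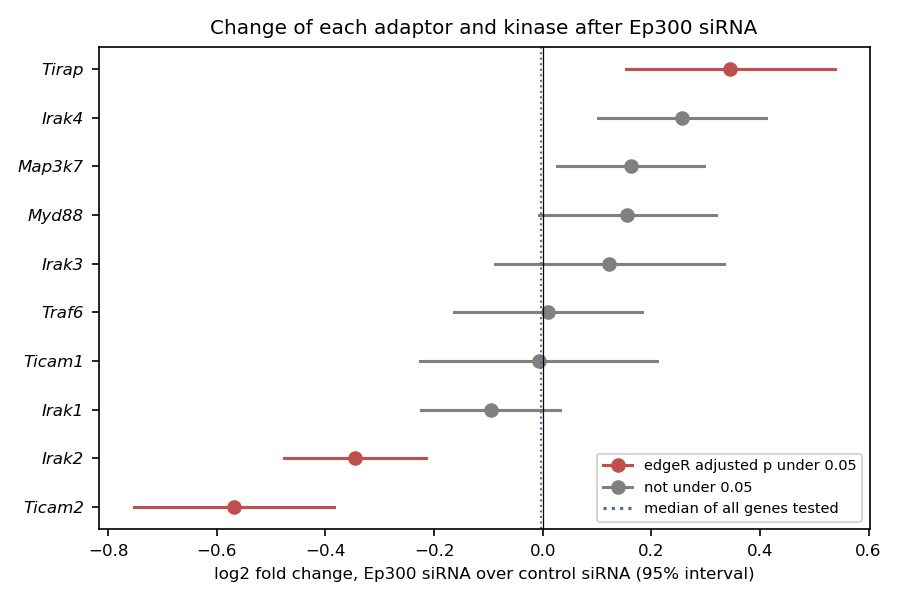
Log2 fold change of Ep300 siRNA over control siRNA (x axis) with its 95% interval for each of the 10 genes, from 3 libraries per group; red marks an edgeR adjusted p under 0.05 and the dotted line the median of all genes tested, -0.0038. Ticam2 (-0.57) and Irak2 (-0.35) lie at the low end and Tirap (0.34) at the high end, while the intervals of Traf6 and Ticam1 are centred near 0.

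**Figure D3:**
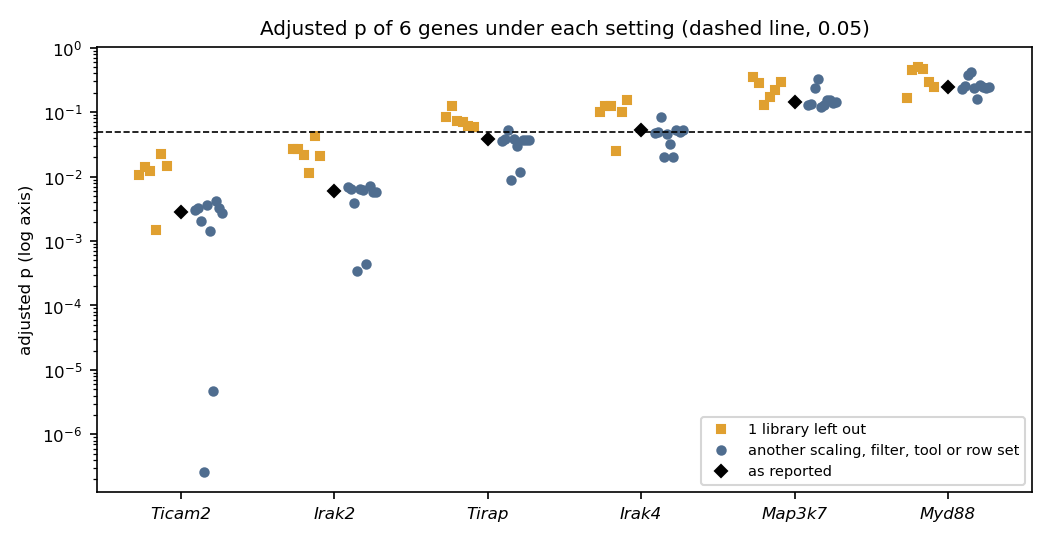
Adjusted p (log axis) of 6 genes as reported (black), with 1 library left out (orange) and under another scaling, filter, tool or set of rows (blue); the dashed line is 0.05. Ticam2 and Irak2 stay below the line throughout, Tirap crosses it whenever a library is left out, Irak4 lies on both sides, and Map3k7 and Myd88 stay above it.

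Divided by exon length, the levels of the 10 genes gave an order. In control siRNA libraries Myd88 was highest at 14.9 ± 1.04 CPM per kb (SD, n = 3), followed by Irak1 at 12.9 ± 0.326, Irak2 at 11.8 ± 0.331, Irak4 at 11.7 ± 1.07, Map3k7 at 8.66 ± 0.146 and Irak3 at 7.12 ± 0.939 CPM per kb. Ticam1 (3.99 ± 0.315), Ticam2 (3.95 ± 0.327) and Tirap (3.68 ± 0.393 CPM per kb) formed a lower group, with Traf6 lowest at 2.29 ± 0.135 CPM per kb. The ranges of Irak2 and Irak4 overlapped, as did those of Ticam1 and Ticam2 and of Ticam2 and Tirap, so these neighbours were not separated in the control siRNA libraries. After Ep300 siRNA, Irak4 stood second at 14.0 ± 0.0605 CPM per kb and Irak2 the fifth at 9.29 ± 0.312 CPM per kb. Tirap, at 4.67 ± 0.15 CPM per kb, stood above Ticam1 (3.97 ± 0.335), and Ticam2 was ninth at 2.66 ± 0.117 CPM per kb. In the Ep300 siRNA libraries only the ranges of Map3k7 and Irak2 overlapped between neighbours. Exon length here is that of all annotated exons of a gene, so a gene with long exons that these cells do not use is placed too low.

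**Figure D4:**
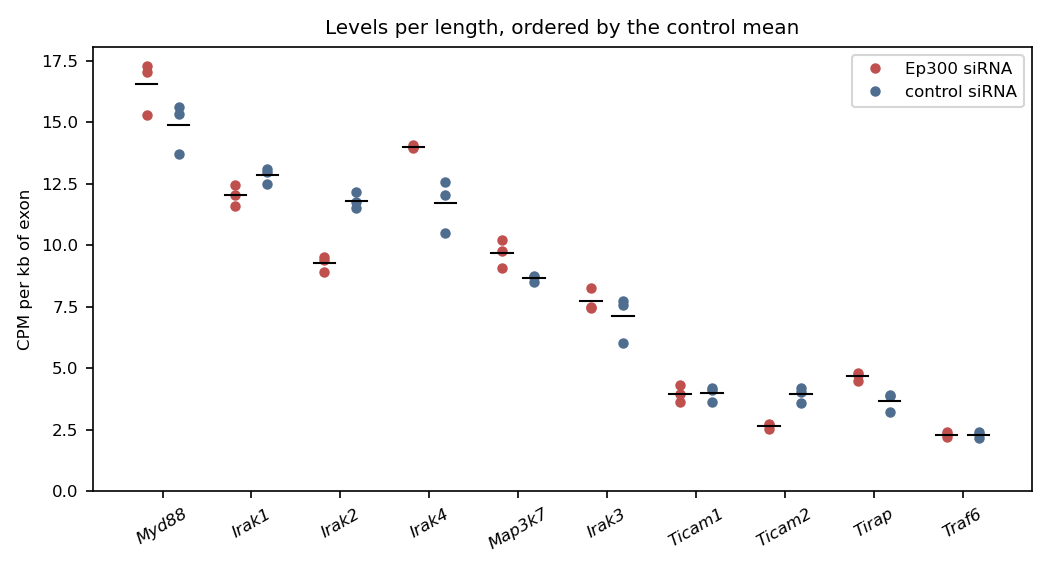
CPM per kb of exon (y axis, from 0) of the 10 genes in each Ep300 siRNA library (red, left of each pair) and each control siRNA library (blue, right), with group means as black lines and genes ordered by the control siRNA mean. Irak2 and Ticam2 have their red points below the blue ones, and Tirap and Irak4 above.

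Promoter sequence is shown for Irak2 and Tirap, called in opposite directions, and for Map3k7, which held a motif match that no other window had, as the bases just before the transcription start (RefSeq, GRCm38.p6), 5′ to 3′ in the direction of transcription. Promoters of 9 of the 10 genes (all but Ticam2), in 12 windows of 250 bases, were searched on both strands. Ticam2, the gene with the largest change, was left out of the promoter set used here. Its promoter was not searched, so the matches below say nothing about it. The motifs were GGAANTTCC (kB), TGACGTCA (CRE), TGANTCA (AP-1), GAAANNGAA (interferon response), GGGCGG (GC box) and CCGGAAG (ETS); capitals mark matches.
Irak2, chr6:113638217-113638466, plus strand: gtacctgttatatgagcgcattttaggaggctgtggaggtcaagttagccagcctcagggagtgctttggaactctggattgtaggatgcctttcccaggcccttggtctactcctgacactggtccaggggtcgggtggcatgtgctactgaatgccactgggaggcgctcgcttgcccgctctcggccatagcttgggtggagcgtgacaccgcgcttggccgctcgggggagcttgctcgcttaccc
Tirap, chr9:35199906-35200155, minus strand: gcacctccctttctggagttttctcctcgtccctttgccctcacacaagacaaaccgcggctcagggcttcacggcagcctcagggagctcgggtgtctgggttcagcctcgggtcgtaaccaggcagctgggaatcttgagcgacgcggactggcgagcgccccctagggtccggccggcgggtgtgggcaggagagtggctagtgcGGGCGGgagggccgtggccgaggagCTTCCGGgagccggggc
Map3k7, chr4:31963857-31964106, plus strand: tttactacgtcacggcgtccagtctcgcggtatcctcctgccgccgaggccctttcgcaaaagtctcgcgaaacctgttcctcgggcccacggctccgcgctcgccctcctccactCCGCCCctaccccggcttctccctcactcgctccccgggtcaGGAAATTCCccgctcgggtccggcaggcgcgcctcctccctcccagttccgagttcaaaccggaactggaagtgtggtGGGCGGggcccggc
The Irak2 window held none of the 6 motifs. The Tirap window held a GC box and an ETS motif, in a stretch where no CRE, kB, AP-1 or interferon motif was found. The window of a second Tirap start, farther upstream, held none of the 6. Among the 12 windows the kB letters were found only before Map3k7, which also held 2 GC boxes, and the interferon motif only before Myd88 and before 1 of the 2 Irak3 starts. Of 32851 promoter windows of this length, 0.813% held the kB motif, 1.55% the CRE, 6.75% the AP-1 motif, 7.13% the interferon motif, 32.7% a GC box and 6.91% the ETS motif. A match is a match of letters only, and other forms of these sites were not searched.

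Other genes of the pathway were read from 4 lists, against 6.78% of all genes tested that changed (2.76% higher, 4.02% lower) and a median log2 fold change of -0.0038. These lists too were chosen with earlier results of these data known. Of 23 receptors and accessory proteins, 18 were tested; 1 rose, 2 fell and 15 did not pass, a share of calls above that of all genes (median log2 fold change 0.12). Tlr4, the lipopolysaccharide receptor that uses both Tirap and Ticam2, fell to 46.2 ± 1.81 CPM after Ep300 siRNA, against 57.5 ± 2.55 CPM after control siRNA (SD, n = 3; log2 fold change -0.32 ± 0.06, SE, edgeR adjusted p = 0.0118; 0.0609 without control siRNA replicate 2). Cd180, a Toll-like relative that tunes Tlr4 signalling, fell to 69.4 ± 2.98 CPM, against 94.5 ± 6.92 CPM after control siRNA (log2 fold change -0.45 ± 0.07, SE, edgeR adjusted p = 0.0034). Unc93b1, the chaperone of the endosomal receptors, rose to 353.0 ± 0.977 CPM, against 290.6 ± 5.50 CPM after control siRNA (log2 fold change 0.28 ± 0.06, SE, edgeR adjusted p = 0.013; 0.052 without Ep300 siRNA replicate 3 and 0.0545 without control siRNA replicate 3). Cd14, the co-receptor of Tlr4, averaged 230.0 ± 13.2 CPM after Ep300 siRNA and 193.8 ± 12.4 CPM after control siRNA and lay just outside the threshold (edgeR adjusted p = 0.0535; DESeq2 adjusted p = 0.0122).

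Of 13 partners of Traf6, TAK1 and the IkB kinases, no gene was past edgeR's threshold, 2 were under 0.05 before adjustment, and none passed by DESeq2 or limma-voom (median log2 fold change 0.03). Over all genes tested, 6.78% were called and 22.2% were under 0.05 before adjustment, so with 13 genes a count of 0 is near the background. The smallest p was that of Tifa, a Traf6-binding protein, at 11.9 ± 1.21 CPM after Ep300 siRNA and 9.63 ± 0.891 CPM after control siRNA (SD, n = 3; edgeR adjusted p = 0.12). Of 12 genes of the Ticam1 arm and interferon factors, 1 fell and 11 did not pass (median 0.037), a share near the 6.78% of all genes tested. The gene that fell was Irf5, a transcription factor activated below Myd88, at 68.9 ± 3.51 CPM after Ep300 siRNA and 82.3 ± 2.57 CPM after control siRNA (log2 fold change -0.26 ± 0.06, SE, edgeR adjusted p = 0.0289). It lost its call with any library but Ep300 siRNA replicate 3 left out (edgeR adjusted p of 0.054 to 0.113). Of 20 other TIR adaptors and regulators, 19 were tested, 2 fell and 17 did not pass (median 0.026), where 6.78% of all genes tested were called, 4.02% lower. Besides Tmed7, Pik3ap1 fell, the adaptor BCAP that links Toll-like receptors to phosphoinositide 3-kinase, at 264.4 ± 3.92 CPM after Ep300 siRNA and 329.9 ± 27.6 CPM after control siRNA (log2 fold change -0.32 ± 0.07, SE, edgeR adjusted p = 0.0194). It lost its call with any library but control siRNA replicate 1 left out (edgeR adjusted p of 0.0608 to 0.101). Tnfaip3, the deubiquitinase A20 that shuts the pathway down, was at -0.44 ± 0.13 (SE) and did not pass (edgeR adjusted p = 0.0723; named after its value was seen).

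**Figure D5:**
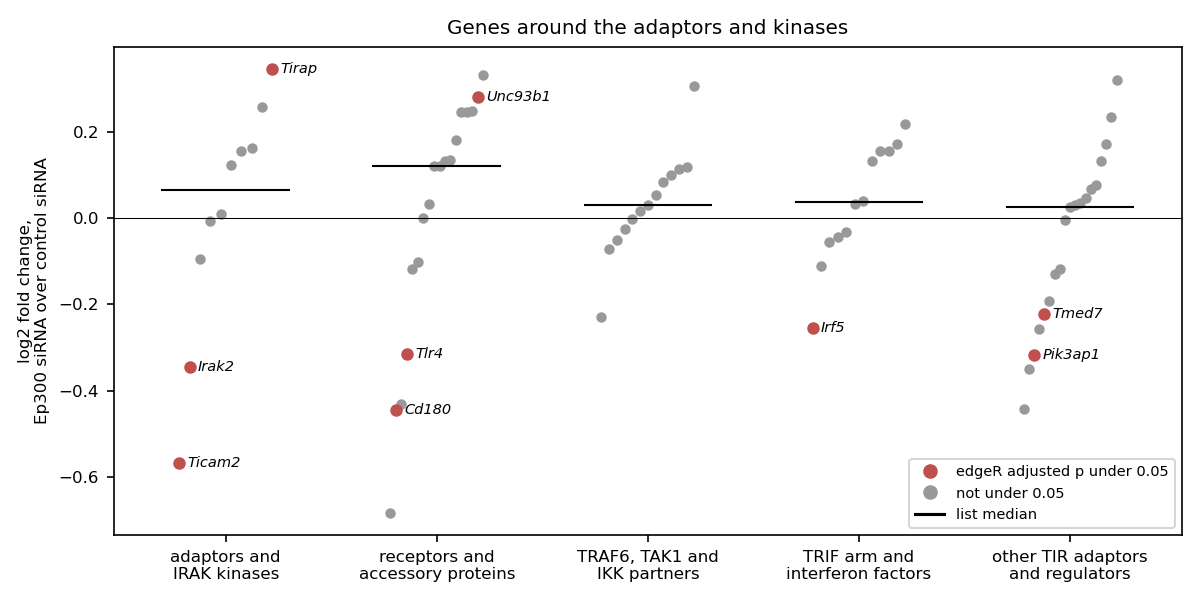
Log2 fold change of Ep300 siRNA over control siRNA (y axis) of every tested gene in the 10 adaptors and kinases and in 4 lists around them; red and a name mark an edgeR adjusted p under 0.05, and black lines the list medians. Of the 9 called genes 7 lie below 0, where 633 of the 1068 calls over all genes do, and none is among the partners of Traf6.

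The genes whose levels over the 6 libraries were most like those of Ticam2 and Tirap were sought among 9224 named genes with a mean of at least 5 CPM, by the root mean square difference of log2 CPM centred on each gene's mean. For Ticam2 they were Dab2, an endocytic adaptor (difference 0.0259), Usp31, a deubiquitinase (0.0475), and St18, a zinc-finger transcription factor (0.0488). Dab2 averaged 82.4 ± 3.33 CPM after Ep300 siRNA and 122.8 ± 8.12 CPM after control siRNA (SD, n = 3), a log2 fold change of -0.58 ± 0.07 (SE). For Tirap they were Hist1h2bc, a histone H2B gene with near-identical copies between which reads can be split (0.0256), Polr2a, the largest subunit of RNA polymerase II (0.0331), and Sptan1, a spectrin (0.0352). Polr2a averaged 232.5 ± 8.73 CPM after Ep300 siRNA and 187.8 ± 17.0 CPM after control siRNA. With 6 libraries in 2 groups, such a list describes these libraries only.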

How the data were processed

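Stranded mRNA libraries were made from 2 µg of total RNA per sample, per the labels' protocols. The deposited file gives raw counts of reads by gene symbol, with a column for each library named as its sample's title. Per the submitters' processing notes, the tools were STAR 2.5.3a, fastp 0.23.4, edgeR 3.12.1 and featureCounts, on GRCm38; the sources used here do not state the annotation, the strand and multi-overlap settings or whether molecular identifiers were used. Of counts of 1 to 4, 79.8% to 80.9% were even, as counting both mates gives, so counts are not independent molecules and depth overstates precision. No library of a group was a copy of another.

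All genes were fitted in R 4.3.3 with edgeR 4.0.16 (TMM scaling after filterByExpr by group, then glmQLFit and glmQLFTest without covariates), with two-sided p adjusted by Benjamini-Hochberg over 15741 genes. SE follows from the log2 fold change and F, and 95% intervals from the t distribution on the same degrees of freedom. CPM uses TMM-scaled library sizes; log2 CPM used a prior count of 2. Coordinates, overlaps and exon lengths are from GENCODE M21 (GRCm38), promoters from RefSeq. Code was tested on simulated data.

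Genes named were the 10 members, Ep300, each member of 4 pathway lists past the threshold (or that with the smallest p), Tlr4, Cd14, genes whose exons overlap a member's (small RNAs and Gm47009 left out) and, for the lowest-p member of each direction, the 3 most similar genes (predicted and accession-style symbols left out). Members and lists were chosen with earlier results of these data known. Alternatives were scaling by RLE, by upper quartile or by library size, no low-count filter, a filter of 1 CPM in 3 libraries, a replicate block, DESeq2 1.42.0, limma-voom (limma 3.58.1), each library left out, halved counts, and no mitochondrial or Gm42418 rows. Figures used matplotlib 3.10.9.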

Additional observations from a re-analysis of the deposited data

How the results depend on the processing

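Of the 10 genes, 8 kept the sign of their log2 fold change in all 16 other settings. Ticam1 ran from -0.073 to 0.052 and Traf6 from -0.032 to 0.054 with 1 library left out, and Traf6 was at -0.024 with library sizes alone; neither passed the test in any setting. Between 2 and 4 of the 10 genes were called: 2 fell in every setting, Tirap and Irak4 moved in and out, and with 1 library left out 2 to 3 were called. Over all genes, 1068 of 15741 tested changed (435 higher, 633 lower). The count was 1721 of 30207 tested without a low-count filter. It was 490 to 1054 with 1 library left out (490 without control siRNA replicate 2). With library sizes alone, 28.6% of calls were higher (316 higher, 788 lower), against 40.7% with TMM and 48.3% by DESeq2 (693 higher, 743 lower). Of the receptors and accessory proteins, 3 were called, against 6 with no filter, 6 with the replicate block, 7 by DESeq2 and 2 to 5 with 1 library left out. The list of the Ticam1 arm had 1 call, against 2 with no filter and 0 to 1 with 1 library left out, and the other TIR adaptors and regulators had 2, against 1 with RLE scaling, 3 with the replicate block, 3 by DESeq2 and 0 to 1 with 1 library left out. The causes of these shifts were not tested. The labels share replicate numbers without saying that they pair the samples. Deviations of same-numbered libraries from their group means correlated at 0.087, 0.0198 and -0.0466. Only 1 Ep300 siRNA library correlated best with its own number. In groups of 3 libraries, such values cannot show whether the samples were paired. With the replicate block 1357 genes were called (580 higher, 777 lower), 4 of the 10 genes among them, Irak4 being added (edgeR adjusted p = 0.0319). Reads of the 10 genes numbered 346 (Ticam1) to 2926 (Irak4) per library. These numbers and the spread between libraries, with 3 per group, limit what small differences can be seen.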
